A study of Mus musculus with 16 samples.

Results

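The PAR bZIP and DEC factors are 6 transcription factors at the output of the circadian clock, and they were taken by name from the 32989 genes measured in liver and kidney of aged mice under chronic jet lag. They are Dbp, Tef and Hlf (the PAR bZIP activators), Nfil3 (a repressor of the same sites), and Bhlhe40 and Bhlhe41 (DEC1 and DEC2). Each symbol stood for 1 gene in the data, and all 6 passed the filter on low values in every comparison. Poly(A)-enriched stranded RNA-seq was done on liver and kidney of 8 male C57BL/6J mice aged 97 weeks, which makes 16 libraries. The 4 LD-conditioned mice (L63, L65, L86 and L104) had lived for 85 weeks with light from 8:00 to 20:00, and the 4 ADV-conditioned mice (A75, A91, A94 and A115) had for the same 85 weeks their cycle moved forward by 8 h every 4 days. No gene was altered in either group. Organs were collected once per mouse, within a window of several hours early in the dark phase, so the data hold no phase or amplitude. The hour of each mouse is not given in the sources used here, and its part in the differences between mice was not tested.

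DBP, TEF and HLF bind D-box elements as dimers and activate transcription there, and NFIL3 (also E4BP4) binds the same elements and represses them. The E-box activators CLOCK and BMAL1 (the product of Arntl) drive the rhythm of Dbp, and the DEC proteins bind E-boxes and repress, so that they feed back on the same activators. In liver the PAR bZIP factors are known for the daily rhythm of detoxification enzymes, among them cytochromes P450 and their electron donor Por.

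The E-box CACGTG was looked for in the RefSeq promoter windows (GRCm38.p6) from 250 bases before to 50 bases after each start site, because it is the element through which CLOCK and BMAL1 and also the DEC proteins act. Of the 6 factors 5 had an entry, and Bhlhe40 had none. The E-box was present in both windows of Tef and in the window of Bhlhe41, and in no window of Dbp, Hlf or Nfil3. Each stretch with a match is shown 5′ to 3′ on the strand of the gene, with the E-box in capitals and 30 bases on either side. The first lies at chr15:81802516-81802581 on the + strand, with its E-box starting 127 bases before the start site, the second at chr15:81811246-81811311 on the + strand, 138 bases before, and the third at chr6:145865538-145865603 on the − strand, 153 bases before.
Tef, first promoter: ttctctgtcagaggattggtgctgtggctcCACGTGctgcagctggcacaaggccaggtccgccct
Tef, second promoter: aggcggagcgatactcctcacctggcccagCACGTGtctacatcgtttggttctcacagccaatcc
Bhlhe41: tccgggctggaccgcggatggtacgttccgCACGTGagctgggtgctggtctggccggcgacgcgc
The same letters, which read alike on both strands, occurred in 7.15% of all 32851 windows. The D-box TTANGTAA, searched on both strands, occurred in 2.32% of them and the RORE in 0.384%, and neither was found in a window of the 5 factors with an entry. These matches describe the letters of short windows and not the binding of any protein.

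The libraries were checked for their organ and for outlying samples before the factors were compared. Summed FPKM (fragments scaled to exon length and to library size) of hepatocyte markers ran from 54716 to 67298 in the livers and from 35.1 to 78.9 in the kidneys, and that of kidney epithelial markers from 20774 to 47205 in the kidneys and from 0 to 1.36 in the livers. Between 21092500 and 24285100 fragments of a liver library and between 15688500 and 18043300 of a kidney library lay on genes. Mouse A94 stood apart by immune cell markers, whose summed level was 855 FPKM in its liver and 71.7 to 129 FPKM in the other livers, and 2092 FPKM in its kidney and 158 to 587 FPKM in the other kidneys. All 17 immune markers tested in liver and all 16 tested in kidney had a higher mean in ADV-conditioned mice, and 0 passed the test. At an unadjusted limma p under 0.05, 3 were higher in liver, beside 8.65% of all genes, and 0 in kidney, beside 1.75%. Of all genes, 65.7% had a higher mean in the ADV condition in liver and 46.4% in kidney. Without A94, 13 of 13 were higher in liver (6 at an unadjusted p under 0.05) and 7 of 15 in kidney (0). Without A115 the unadjusted counts were 6 of 17 in liver and 3 of 16 in kidney. In that kidney fit 18.8% of all 14475 genes passed after adjustment, in either direction. The share of all genes at the unadjusted threshold is not given for fits with a mouse left out, so these counts have no background beside them. The kidney of A115 stood apart by mitochondrial transcripts, which made up 33.8% of its fragments and 9.43% to 18.02% in the other kidneys. Its summed epithelial level was the highest through Kap, a proximal tubule transcript (45922 FPKM), whereas it was the lowest kidney for 5 of the 7 epithelial markers. Among these were Slc34a1, a phosphate transporter (154 FPKM, others 801 to 1553), Slc12a3, a sodium chloride transporter (35.2 FPKM, others 137 to 260), Aqp2, the collecting duct water channel (1.81 FPKM, others 35.7 to 200), and Nphs1, a podocyte gene (0.96 FPKM, others 4.25 to 5.11). The part of immune cells, of mitochondrial RNA or of the loss of epithelial markers in the results below was not tested. In bulk tissue, fewer cells of a type and less RNA per cell cannot be told apart. A pair of sequencing providers is named for the study without a provider for each library, so that provider cannot be told apart from condition or from organ here.

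Dbp, a PAR bZIP factor known for a steep daily rhythm, did not pass the test between the conditions, and its levels in ADV-conditioned mice reached both above and below those of all LD-conditioned mice. The gene (uc009gws.2) lies at chr7:45705247-45710203 on the + strand of GRCm38/mm10 and has 1674 bases of exon. In liver, Dbp stood at 28.6, 22.0, 13.4 and 8.25 FPKM in L63, L65, L86 and L104, and at 2.40, 37.8, 33.7 and 1.33 FPKM in A75, A91, A94 and A115. The ADV-conditioned mice held both the highest and the lowest livers, with A91 and A94 above and A75 and A115 below every LD-conditioned mouse. In kidney, Dbp stood at 34.9, 26.2, 15.8 and 16.4 FPKM in the LD-conditioned mice and at 12.1, 68.5, 58.1 and 5.32 FPKM in A75, A91, A94 and A115. The same mice were above and below the LD range as in liver. Group means in liver were 18.04 ± 9.01 FPKM (SD, n = 4) for LD and 18.8 ± 19.6 FPKM (SD, n = 4) for ADV. In kidney they were 23.3 ± 9.06 and 36.0 ± 31.9 FPKM (SD, n = 4 each). On the log2(FPKM + 0.1) scale the ADV minus LD difference was −0.99 (SE 1.04, adjusted p = 0.675) in liver and 0.031 (SE 0.81, adjusted p = 0.9999) in kidney, from limma with Benjamini-Hochberg adjustment. The 95% intervals, from −3.33 to 1.35 and from −1.82 to 1.88, leave room for large differences either way. In liver the difference was −0.15 without A115, −0.42 without A75, −1.73 without A91 and −1.67 without A94. The span of Dbp on the genome, introns included, shares 741 bases with that of Sphk2, a gene on the other strand. Sphk2 had a mean of 6.72 FPKM in liver and 6.77 FPKM in kidney, and whether counting used strand is not given in the sources used here.

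Tef, a close relative of Dbp with a flatter rhythm, had the highest mean of the 6 in LD-conditioned livers. The gene (uc007wxj.2) lies at chr15:81802673-81826863 on the + strand and has 4147 bases of exon. In liver it stood at 42.6, 44.8, 46.0 and 39.2 FPKM in L63, L65, L86 and L104, and at 23.8, 46.2, 41.1 and 20.9 FPKM in A75, A91, A94 and A115. The LD-conditioned livers were close together, and A75 and A115 lay below all of them while A91 and A94 lay within or just above their range. In kidney it stood at 54.6, 50.5, 39.9 and 51.6 FPKM in the LD-conditioned mice and at 42.6, 66.4, 62.1 and 7.69 FPKM in the ADV-conditioned mice in the same order. The kidney of A115, with its low epithelial markers, was far below every other kidney. The difference was −0.47 (SE 0.24, adjusted p = 0.461) in liver and −0.51 (SE 0.64, adjusted p = 0.9999) in kidney, on the log2 scale. The former was −0.27 without A115, and the latter turned to 0.20 without A115, when the median of all genes in kidney was also 0.20.

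Hlf, the third activator, was the factor with the most even levels among LD-conditioned mice. The gene (uc007kws.1) lies at chr11:90336535-90390917 on the − strand and has 5661 bases of exon. In liver it stood at 10.1, 10.95, 11.1 and 10.1 FPKM in the LD-conditioned mice and at 5.76, 9.35, 8.63 and 10.9 FPKM in A75, A91, A94 and A115. A75, A91 and A94 lay below the LD range, and A115 lay inside it. In kidney it stood at 32.4, 34.2, 26.5 and 29.6 FPKM in the LD-conditioned mice and at 15.3, 28.8, 22.2 and 21.6 FPKM in the ADV-conditioned mice. A75, A94 and A115 were below every LD-conditioned kidney, and A91 was not, so that the groups overlapped. The difference in kidney, −0.51 (SE 0.21, 95% interval −0.98 to −0.036), had an unadjusted limma p of 0.038 and an adjusted p of 0.9999. In liver it was −0.32 (SE 0.18, adjusted p = 0.476), and −0.14 without A75. An exact permutation test over the 70 assignments of the mice, two-sided, gave p = 0.057 in kidney and p = 0.086 in liver, where 0.029 is the smallest p that 4 against 4 mice allow.

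Nfil3, the repressor that competes with the activators at D-boxes, spread over a similar range in both conditions in liver and was low in kidney. The gene (uc007qni.1) lies at chr13:52967209-52981039 on the − strand and has 1990 bases of exon. In liver it stood at 9.62, 10.4, 26.6 and 17.6 FPKM in L63, L65, L86 and L104, and at 16.2, 6.92, 7.03 and 14.9 FPKM in A75, A91, A94 and A115. The highest liver was L86, and A91 and A94 were below all LD-conditioned livers. In kidney it stood at 3.64, 3.74, 6.11 and 3.66 FPKM in the LD-conditioned mice and at 5.97, 1.51, 3.66 and 3.49 FPKM in the ADV-conditioned mice. L86 and A75 were high and A91 was low, and the groups overlapped. The difference was −0.49 (SE 0.39, adjusted p = 0.578) in liver and −0.34 (SE 0.40, adjusted p = 0.9999) in kidney. In liver it was −0.21 without L86, −0.30 without A91 and −0.31 without A94, and in kidney it was −0.16 without L86, −0.62 without A75 and 0.022 without A91.

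The DEC factors repress from E-boxes, and they lay far apart in level, since Bhlhe40 was abundant and Bhlhe41 was the lowest of the 6 in every library. Bhlhe40 (uc009ddn.1) lies at chr6:108660629-108666925 on the + strand and has 3108 bases of exon. Its span on the genome, introns included, shares 306 bases with that of 0610040F04Rik, a transcript on the other strand. That transcript had a mean of 0.0061 FPKM in liver and 1.06 FPKM in kidney. In liver Bhlhe40 stood at 31.1, 44.1, 34.0 and 35.1 FPKM in the LD-conditioned mice and at 24.2, 41.0, 60.0 and 27.9 FPKM in A75, A91, A94 and A115. The ADV-conditioned livers lay on both sides of the LD range, and the highest was that of A94, the liver with the high immune markers. In kidney it stood at 50.6, 43.0, 69.9 and 45.8 FPKM in the LD-conditioned mice and at 45.7, 39.9, 36.8 and 18.5 FPKM in the ADV-conditioned mice. A91, A94 and A115 were below every LD-conditioned kidney and A75 was within their range. The difference was 0.0057 (SE 0.26, adjusted p = 0.993) in liver and −0.62 (SE 0.30, 95% interval −1.31 to 0.076, adjusted p = 0.9999) in kidney, where the exact permutation p was 0.057. In kidney it was −0.34 without A115. The direction in liver changed with scaling and with the mouse left out. Under scaling by the median ratio without A115, Bhlhe40 in kidney passed the test with −0.53 and an adjusted limma p of 0.048, in a comparison in which 2309 of 14475 genes (16%) passed.

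Bhlhe41 (uc009ert.2) lies at chr6:145858243-145865420 on the − strand and has 5990 bases of exon. In liver it stood at 0.413, 0.403, 0.267 and 0.201 FPKM in the LD-conditioned mice and at 0.0927, 0.318, 0.778 and 0.216 FPKM in A75, A91, A94 and A115. A94 was the highest and A75 the lowest of all livers. The lowest value rests on 13 fragments, whose exact 95% Poisson interval is 6.92 to 22.2 fragments and covers counting error only. In kidney it stood at 0.904, 0.497, 0.782 and 0.437 FPKM in the LD-conditioned mice and at 0.334, 1.03, 1.38 and 0.427 FPKM in the ADV-conditioned mice. A91 and A94 lay above and A75 and A115 below the LD range. The difference was −0.088 (SE 0.43, adjusted p = 0.942) in liver and 0.11 (SE 0.44, adjusted p = 0.9999) in kidney, and its sign changed in either organ with the mouse left out.

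**Figure D1:**
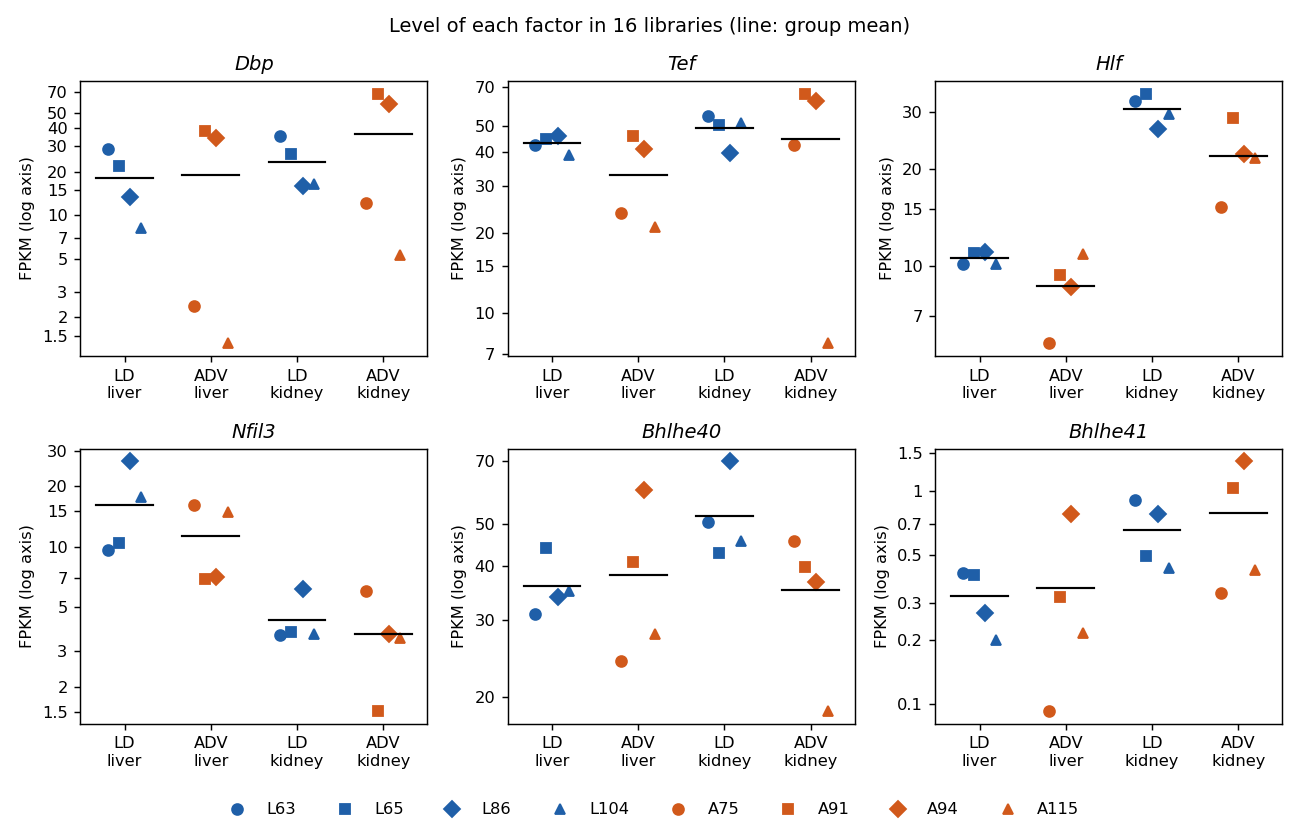
Level of each factor in FPKM (log axis, 1 panel per gene) in LD and ADV livers and kidneys, with 1 symbol per mouse and a line at the mean of 4 mice. For Dbp the ADV-conditioned livers span 1.33 to 37.8 FPKM and enclose the LD range of 8.25 to 28.6 FPKM.

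As a group, 0 of the 6 factors passed the test between the conditions in either organ. Over all genes limma with adjustment called 1 of 12835 genes in liver (0.00779%) and 0 of 14452 in kidney (0%). Without A115, 0 of 6 factors passed in kidney beside 18.8% of 14475 genes. At an unadjusted p under 0.05 the count was 0 of 6 factors in liver, beside 11.8% of all genes, and 1 of 6 (Hlf) in kidney, beside 3.1% of all genes, and the count in kidney was 0 without A94 and 2 under the median ratio without A115. In liver it was 2 under the median ratio and 1 under quantile normalization, without A94 or without A115. The shares of all genes at this threshold are given only for the fits with all mice as deposited, so these other counts have no background beside them. After adjustment limma-voom on recovered fragments also called 0 factors in either organ. For 0 of 6 factors were the ADV-conditioned mice all above or all below the LD-conditioned mice, whereas 8.84% of all genes had such groups in liver and 2.8% in kidney. The mean log2 level was lower in the ADV condition for 5 of 6 factors in liver (median difference −0.39, all genes 0.096) and for 4 of 6 in kidney (median −0.42, all genes −0.024). The count in liver depends on the log scale, since the mean FPKM was lower for 3 of 6 factors there and higher for Dbp, Bhlhe40 and Bhlhe41. In liver 6 of 6 were lower under scaling by the median ratio, which moved the median of all genes to −0.002, and 4 of 6 were lower without A115 (median −0.21, all genes 0.093). In kidney 6 of 6 were lower without A94 (median −0.47, all genes −0.099) and 3 of 6 without A115 (median −0.07, all genes 0.20). The test of whether the ADV effect differed between the organs called 0 of 6 factors, beside 0% of 14379 genes (without A115, 0 of 6 beside 2.88% of 14397 genes), and 0 of 6 at an unadjusted p under 0.05, beside 3.73%. For Dbp the effect was higher in kidney than in liver by 1.02 on the log2 scale (95% interval −2.08 to 4.13, adjusted p = 0.9999). For Bhlhe40 the kidney minus liver value was −0.63 (−1.54 to 0.29, adjusted p = 0.9999). These intervals take the organs of a mouse as independent. An exact permutation test over mice on the kidney minus liver differences gave p = 0.086 for Dbp and p = 0.171 for Bhlhe40. With the mouse as a replicate block 0 of 14379 genes passed.

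**Figure D2:**
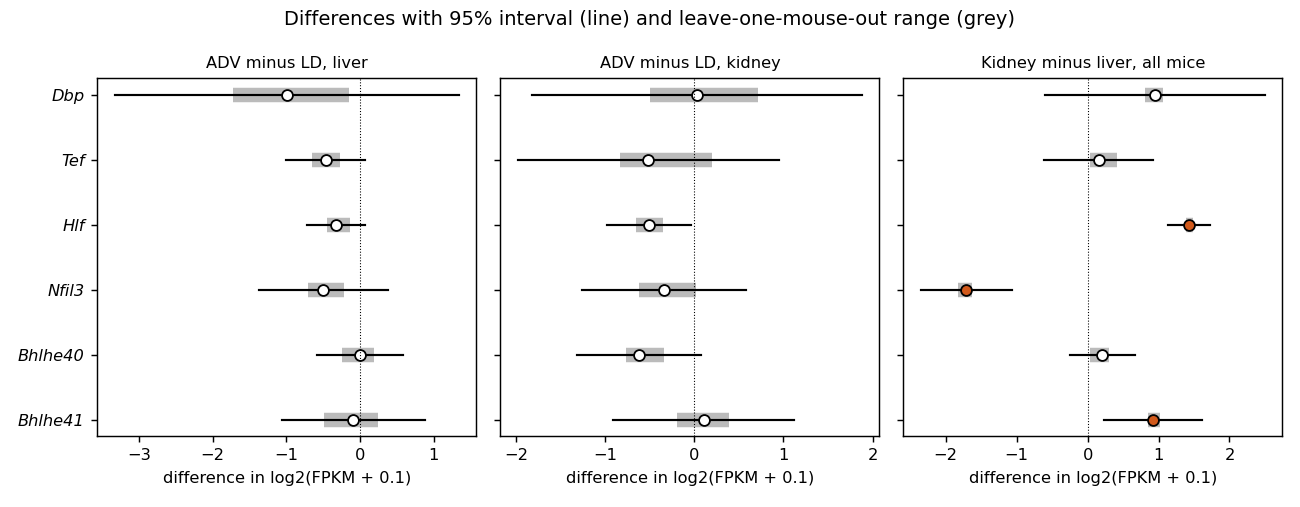
Differences in log2(FPKM + 0.1) for ADV minus LD in liver, ADV minus LD in kidney and kidney minus liver, with the 95% interval as a line, the range over fits that leave out 1 mouse in grey, and a filled point where the adjusted limma p was under 0.05. The filled points are Hlf (1.43), Nfil3 (−1.71) and Bhlhe41 (0.93) between the organs.

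The other clock genes and the targets of the PAR bZIP factors were counted in the same fits. Of 16 other clock genes, 14 could be tested in liver, and 11 of them had a lower mean in the ADV condition (median difference −0.39). None passed the test, and 3 were lower and 0 higher at an unadjusted p under 0.05, where 3.13% of all genes were lower. Without A115 the median was −0.18. The smallest p among those higher belonged to Clock, the partner of BMAL1, with 0.31 (SE 0.33, adjusted p = 0.679). In kidney 16 were tested and 10 were lower (median −0.27). There too 0 passed the test, with 2 lower and 0 higher at an unadjusted p under 0.05, where 1.35% of all genes were lower. Cry1, a repressor of CLOCK and BMAL1, had the smallest p among those lower (−0.64, SE 0.22, adjusted p = 0.9999), and Csnk1e, a kinase of the PER proteins, among those higher (0.20, SE 0.20, adjusted p = 0.9999). Without A115, 8 of 16 were lower in kidney with a median of 0.031, while the median of all genes was 0.20, and under the median ratio without A115 10 of 16 were lower with a median of −0.14 (all genes 0.0094). Under the median ratio without A115 5 passed, all lower, beside 16% of all genes in either direction. In the fit without A115 as deposited 4 of the 16 passed the test, 3 of them lower, beside 18.8% of all 14475 genes in either direction and 2.68% lower.

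The list of D-box and PAR bZIP targets holds 18 genes, most of them of detoxification and lipid metabolism, and also Alb, which encodes serum albumin. All 18 were tested in liver and 14 had a lower mean in the ADV condition (median difference −0.40). By limma 0 passed after adjustment, and 7 were lower and 0 higher at an unadjusted p under 0.05, beside 3.13% of all genes lower. Por, the electron donor of microsomal cytochromes P450, stood at 200, 184, 258 and 226 FPKM in the LD-conditioned livers and at 91.6, 151, 105 and 105 FPKM in the ADV-conditioned livers. The groups did not overlap, as was so for 8.84% of all genes in liver, and the difference was −0.95 (SE 0.17, adjusted p = 0.210). Por is shown because it had the smallest p among those lower. The gene with the smallest p among those higher was Cyp2c50, a cytochrome P450, with 0.18 (SE 0.12, adjusted p = 0.523). In kidney 13 were tested and 11 were lower (median −0.38). Without A115, 7 of 13 were lower with a median of −0.24 (all genes 0.20), and under the median ratio without A115 11 of 13 were lower with a median of −0.43 (all genes 0.0094). Again 0 passed, with 3 lower and 0 higher at an unadjusted p under 0.05, beside 1.35% of all genes lower. Without A115 2 of 13 passed, both lower, where 2.68% of all genes passed and were lower. With all mice, Cyp2a5, a cytochrome P450 that also metabolises coumarin, had the smallest p among those lower in kidney (−1.45, SE 0.51, adjusted p = 0.9999). Cyp4a14, a fatty acid hydroxylase, had it among those higher (0.61, SE 0.33, adjusted p = 0.9999).

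Between the organs, Hlf was higher and Nfil3 lower in kidney in every mouse and under every scaling. Hlf was 1.98 to 3.19 times as high in kidney as in liver, and the mean difference was 1.43 on the log2 scale (SE 0.14, adjusted p = 2.21e-07). Nfil3 was 0.207 to 0.521 times as high, with a difference of −1.71 (SE 0.30, adjusted p = 0.0001). Bhlhe41 was 1.23 to 3.60 times as high in kidney in the 8 mice, with a difference of 0.93 (SE 0.32, adjusted p = 0.018). So 3 of 6 factors passed the test, beside 74.5% of all 14379 genes, and the organ median of all genes was itself 0.74 higher in kidney. Scaling by the median ratio brought that median to 0.0076, and 9381 of 14379 genes then passed. Hlf was then 0.66 higher (adjusted p = 0.0032) and Nfil3 was −2.47 (adjusted p = 2.19e-06). Bhlhe41 kept its direction with 0.31 but did not pass (adjusted p = 0.370), and with quantile normalization it stood at −0.39 (adjusted p = 0.253). It also failed the threshold without L86 (0.85, adjusted p = 0.057) and without A91 (0.86, adjusted p = 0.050).

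Dbp was 1.18 to 5.03 times as high in kidney as in liver, in 8 of 8 mice, and the 2 largest ratios were those of A75 (5.03) and A115 (4.01). Its mean difference of 0.95 (SE 0.73) did not pass with the organs of a mouse taken as independent (adjusted p = 0.249). It passed with the mouse as a replicate block (adjusted p = 0.0017), where 10859 of 14379 genes passed and the median of all genes was 0.74. The exact test over sign changes of the 8 differences gave p = 0.0078, the smallest that it allows. On the same scale 77.6% of all genes had a higher mean in kidney. With the median ratio the difference of Dbp was 0.18. Tef was higher in kidney in 6 of 8 mice (0.16, adjusted p = 0.707) and Bhlhe40 in 4 of 8 (0.21, adjusted p = 0.390). The direction of both depended on scaling: the median ratio gave −0.62 for Tef (adjusted p = 0.079) and −0.57 for Bhlhe40 (adjusted p = 0.0047), and quantile normalization −0.13 and −0.11. Under the median ratio 9381 of 14379 genes passed. Without A115, whose kidney over liver ratio of Tef was 0.368 beside 0.867 to 1.79 in the other mice, Tef was 0.42 higher in kidney and passed (adjusted p = 0.017). In that fit 12326 of 14397 genes passed, and the median of all genes was 0.83 higher in kidney. Under the median ratio without A115 Tef was lower in kidney.

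FPKM is per exon length, so the levels of the factors can be ordered within a group. In LD-conditioned livers the mean fell from Tef (43.2 FPKM) to Bhlhe40 (36.1), Dbp (18.04), Nfil3 (16.1), Hlf (10.6) and Bhlhe41 (0.321). The mice overlapped between Tef and Bhlhe40, between Dbp and Nfil3 and between Nfil3 and Hlf, and they did not overlap at the other steps. In LD-conditioned kidneys the order was Bhlhe40 (52.3 FPKM), Tef (49.2), Hlf (30.7), Dbp (23.3), Nfil3 (4.29) and Bhlhe41 (0.655). There Bhlhe40 overlapped with Tef and Hlf with Dbp, and the other steps did not overlap. The mean levels in ADV-conditioned livers were 38.3 FPKM for Bhlhe40, 32.98 for Tef, 18.8 for Dbp, 11.3 for Nfil3, 8.66 for Hlf and 0.351 for Bhlhe41. Dbp of single ADV-conditioned livers was found on either side of Nfil3 and Hlf of the same liver: in A75 and A115 it lay below them and in A91 and A94 above them. Mean levels in ADV-conditioned kidneys were 44.7 FPKM for Tef, 36.0 for Dbp, 35.2 for Bhlhe40, 22.0 for Hlf, 3.66 for Nfil3 and 0.792 for Bhlhe41.

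Mice with a high level of Dbp in liver also had a high level in kidney. Across the 8 mice the log2 level in liver correlated with that in kidney with r = 0.93 and rho = 0.98 (exact permutation p = 5e-05 for r and 0.0004 for rho, adjusted p = 0.0024 and 0.019 over 48 relations). Leaving out A115 and A75, the mice farthest from the median in liver, gave r = 0.92 (exact p = 0.0069). After the group means were subtracted r was 0.98, and within the 4 LD-conditioned mice it was 0.91 and within the 4 ADV-conditioned mice 0.99, as a description. Without A115 alone r was 0.88 and the adjusted p was 0.055.

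The same relation was computed for the other factors, and differences between the correlations were not tested. Bhlhe41 had r = 0.83 and rho = 0.86 between the organs (exact permutation p = 0.0079 and 0.011, adjusted p = 0.042 and 0.064), and 0.53 without A75 and A94. For Tef r was 0.77 and rho 0.48 (exact p = 0.029 and 0.243, adjusted p = 0.105 and 0.432), for Hlf 0.79 and 0.45 (exact p = 0.034 and 0.267, adjusted p = 0.105 and 0.459), and for Nfil3 0.72 and 0.62 (exact p = 0.047 and 0.115, adjusted p = 0.123 and 0.276). Without the 2 mice farthest from the median in liver these became −0.18, −0.25 and 0.37, so that they rest on those mice (A75 with A115 for Tef, A75 with A94 for Hlf and A91 with L86 for Nfil3). Bhlhe40 had r = 0.064 and rho = −0.24 (exact p = 0.881 and 0.582, adjusted p = 0.881 and 0.716), and r was −0.51 without A115. Tef passed without L86 (r = 0.81, adjusted exact p = 0.042), and under the median ratio Tef (r = 0.81, adjusted exact p = 0.049) and Hlf (r = 0.94, adjusted exact p = 0.042) passed.

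**Figure D3:**
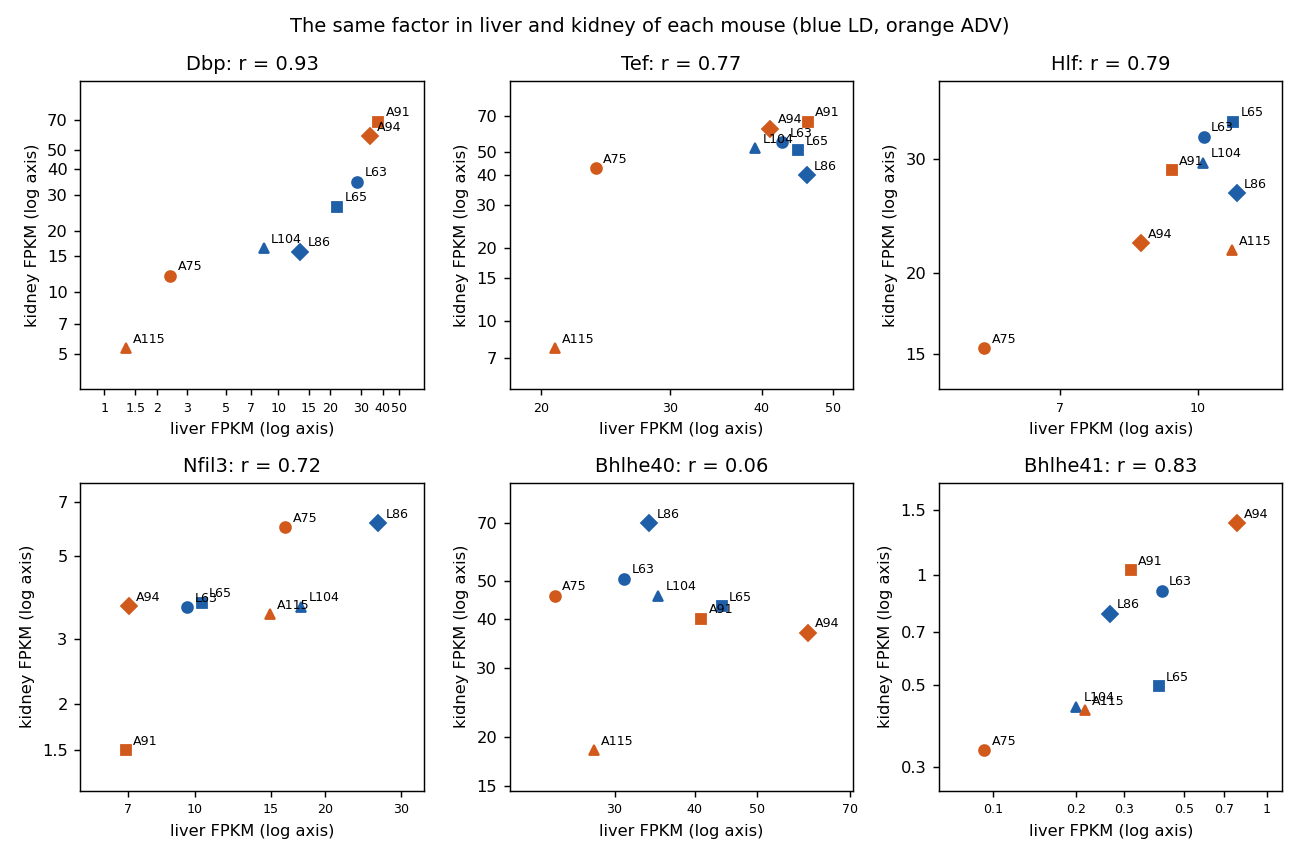
Level of each factor in the kidney against its level in the liver of the same mouse, in FPKM on log axes, with LD-conditioned mice in blue and ADV-conditioned mice in orange. The 8 mice fall close to 1 line for Dbp (r = 0.93) and are scattered for Bhlhe40 (r = 0.064).

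Arntl, which encodes BMAL1 and peaks opposite to Dbp in the known clock, served as a reference for the state of the clock in each sample. In liver it stood at 0.700, 1.30, 2.496 and 3.95 FPKM in L63, L65, L86 and L104, and at 5.91, 1.06, 0.723 and 6.72 FPKM in A75, A91, A94 and A115. In kidney it stood at 0.937, 1.04, 2.59 and 1.81 FPKM in the LD-conditioned mice and at 4.61, 0.822, 1.21 and 6.35 FPKM in the ADV-conditioned mice. A75 and A115 had the highest Arntl and the lowest Dbp in both organs. Dbp and Arntl were inversely related in liver, with r = −0.95 and rho = −0.90 (exact permutation p = 0.00025 and 0.0046, adjusted p = 0.0052 and 0.055), and r was −0.94 without A75 and A115. In kidney r was −0.91 and rho −0.93 (exact permutation p = 0.001 and 0.0022, adjusted p = 0.012 and 0.036), and r was −0.80 without A115 and A91. The relation in kidney did not pass without A115 (r = −0.84, adjusted p = 0.077), and that in liver passed with each mouse left out.

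Among the other pairs, Dbp and Tef were positively related. In kidney r was 0.83 and rho 0.95 (exact permutation p = 0.00032 and 0.0011, adjusted p = 0.0052 and 0.027), and r was 0.88 without A115 and A91. In liver r was 0.93 and rho 0.76 (exact permutation p = 0.0049 and 0.037, adjusted p = 0.033 and 0.147), and r was 0.38 without A115 and A75. The relation in liver thus depends on A115 and A75. Tef and Arntl were inversely related in kidney (r = −0.79, rho = −0.86, exact permutation p = 0.002 and 0.011, adjusted p = 0.02 and 0.064, r = −0.77 without A115 and A91). In liver Bhlhe41 was inversely related to Arntl (r = −0.86, rho = −0.88, exact permutation p = 0.0031 and 0.0072, adjusted p = 0.025 and 0.058, r = −0.91 without A75 and A94). Bhlhe40 and Bhlhe41 were positively related in liver (r = 0.87, rho = 0.67, exact permutation p = 0.007 and 0.083, adjusted p = 0.042 and 0.222), with r = 0.44 without A75 and A94, on which the relation rests. Nfil3 and Dbp had r = −0.60 in liver and −0.55 in kidney (exact permutation p = 0.127 and 0.147, rho = −0.76 and −0.36 with p = 0.037 and 0.389), and neither passed (adjusted p = 0.244 and 0.262, and 0.147 and 0.550 for rho).

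In all, 9 of the 48 relations had an adjusted p under 0.05 for r, 19 had an unadjusted p under 0.05, and 3 had an adjusted p under 0.05 for rho. The count by r was 5 without L104 or without A75, 4 without A91 and 3 without A115, in each case with 7 mice. Bhlhe41 between the organs lost its call with any mouse but L65 left out (r from 0.71 to 0.88, adjusted exact p from 0.052 to 0.213), and Bhlhe40 with Bhlhe41 in liver with any mouse but L63 left out (r from 0.73 to 0.89, adjusted exact p from 0.052 to 0.181). Bhlhe41 with Arntl in liver lost it without L86, L104, A75, A91 or A94 (adjusted exact p from 0.051 to 0.149), and Dbp with Tef in liver without L104, A75, A91 or A115 (0.061 to 0.169). In kidney Dbp with Tef lost it without A115 (adjusted exact p = 0.059) and Tef with Arntl without A91 (0.057) or A115 (0.1004). The 48 relations share mice, libraries and members, so they are not independent of each other.

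**Figure D4:**
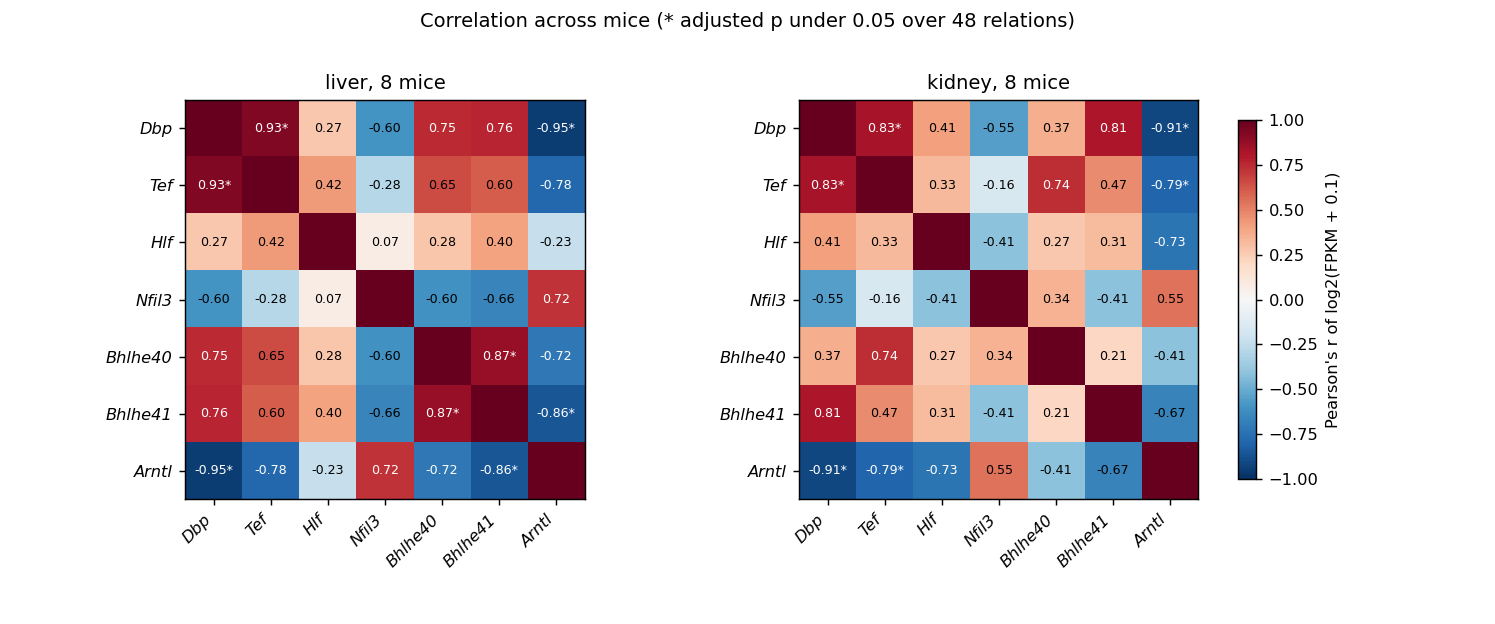
Pearson's r of log2(FPKM + 0.1) across 8 mice between the 6 factors and Arntl in liver and in kidney, with an asterisk where the adjusted p over 48 relations was under 0.05. Dbp and Arntl have r = −0.95 in liver and −0.91 in kidney, and Hlf in liver has no asterisk with any factor.

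The genes whose pattern was most like that of each factor were sought among 12319 genes tested in both organs, over 16 libraries after subtraction of each organ mean. These values are a description without a test, since each gene was chosen for its r. For Dbp the highest r were those of Rassf3 (0.94) and Nr1d1 (0.94), which encodes the clock repressor REV-ERBα, and the lowest of all genes was that of Arntl (−0.93). For Tef they were Gamt (0.97), an enzyme of creatine synthesis, and Acad10 (0.97), for which the kidney of A115 contributes the lowest Tef value. Hlf was most like Fastkd1 (0.85) and Grsf1 (0.83), both of which act on mitochondrial RNA. Nfil3 was most like Arid5b (0.82), a DNA-binding regulator, and Simc1 (0.80). Bhlhe40 was most like Csnk2b (0.92), the regulatory subunit of casein kinase 2, and Hdhd2 (0.90). Bhlhe41 was most like Uvrag (0.86), a gene of autophagy, and Ndufab1 (0.84), the mitochondrial acyl carrier protein.

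The spread among mice of a condition was described for each factor by the SD of log2(FPKM + 0.1), with no test. In liver the SD of Dbp was 0.79 for LD and 2.47 for ADV, a ratio of 3.14, and the highest liver was 3.46 and 28.5 times the lowest. The ratio was 5.54 for Tef (0.10 and 0.57), 5.74 for Hlf (0.068 and 0.39), 2.73 for Bhlhe40 (0.21 and 0.59) and 2.46 for Bhlhe41 (0.37 and 0.91). Nfil3 had a ratio of 0.967 (0.69 and 0.66). Leaving out 1 mouse moved these ratios widely, from 4.55 without L63 to 10.1 without L104 for Tef, from 2.52 without A75 to 7.03 without A94 for Hlf, from 1.82 without A94 to 6.39 without L65 for Bhlhe40, and from 1.52 without A94 to 3.37 without L104 for Bhlhe41. These ratios stand beside a median of 1.65 over all genes tested in liver, 76.5% of which had a ratio above 1, and that median was 1.13 without A94 and between 1.61 and 1.92 with any other mouse left out. The SD of Dbp was at percentile 99.8 of all genes among the ADV-conditioned livers and at percentile 99.3 among the LD-conditioned livers, so that it was among the most variable genes in either condition.

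In kidney the median ratio of all genes was 3.13, and 90.1% of them had a ratio above 1. That median was 1.26 without A115, the kidney with 33.8% mitochondrial fragments, and between 3.15 and 3.93 with any other mouse left out. Dbp had a ratio of 3.23 (SD 0.55 and 1.78), with a highest kidney of 2.21 and 12.9 times the lowest. With all mice, Hlf (2.33), Nfil3 (2.21), Bhlhe41 (1.96) and Bhlhe40 (1.87) lay below the median of 3.13. Tef had a ratio of 7.27. Leaving out 1 mouse moved the ratio of Tef from 1.73 without A115 to 24.9 without L86, that of Bhlhe40 from 0.504 without A115 to 4.95 without L86 and that of Hlf from 1.42 without A75 to 3.54 without L86. The median of all genes was 1.26 without A115 and 3.93 without L86, so that without A115 Tef lay above it and Bhlhe40 below it. For Nfil3 the ratio ran from 1.17 without A91 to 37.4 without L86, and the other 3 LD-conditioned kidneys lay between 3.64 and 3.74 FPKM. That of Dbp ran from 2.504 without A115 to 4.38 without L63 in kidney, and from 2.64 without L86 to 4.48 without L104 in liver.

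**Figure D5:**
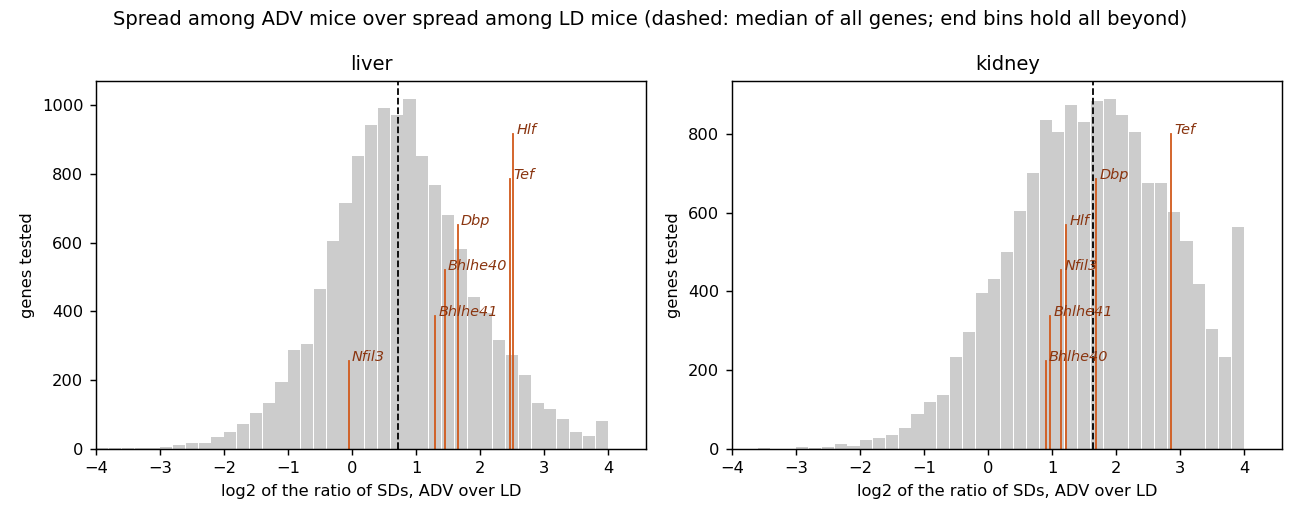
Histogram over all genes tested of the log2 of the ratio of SDs, ADV over LD, in liver and kidney, with a dashed line at the median and a labelled line for each factor, where the end bins hold all genes beyond them. In liver Tef (ratio 5.54) and Hlf (5.74) lie to the right of the median of 1.65 and Nfil3 (0.967) to its left. In kidney, with all mice, only Dbp (3.23) and Tef (7.27) lie to the right of the median of 3.13. Without A115, which is not drawn, the kidney median was 1.26 and only Bhlhe40 (0.504) lay below it.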

How the data were processed

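Poly(A)-enriched stranded RNA-seq of liver and kidney from 8 mice was analysed. The authors trimmed reads with Trimmomatic after bcl2fastq, mapped them to mm10 with STAR 2.5.4b, removed reads of low mapping quality with SAMtools and counted reads on UCSC known canonical exons in HOMER. The deposited values are FPKM, normalized to exon length and to each library's own total. Multiplied by length and total they gave steps of 0.5 fragment, from which fragments were recovered.

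In R 4.3.3, limma 3.58.1 (lmFit, eBayes with trend) was run on log2(FPKM + 0.1) over all genes with a mean above 0.5 in FPKM times exon length in kilobases, with Benjamini-Hochberg adjustment and a threshold of 0.05. Folds on this scale understate changes of low genes. Exact permutation tests, correlations and figures used Python 3.11.15 with numpy 2.4.6, scipy 1.17.1 and pandas 2.3.3. P-values measure the spread between the mice of this experiment. Scripts were tested on simulated data.

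Conditions and mice were read from the labels. The mouse number pairs the organs, and liver and kidney deviations of L63, L65, L86, L104, A75, A91, A94 and A115 correlated across genes by 0.147, 0.117, 0.185, 0.0982, −0.0242, 0.334, 0.553 and 0.0423. The factors, lists and rules were chosen with earlier results of these data known. Named are every factor, Arntl, the gene with the smallest p in each direction, list and organ, and the 2 genes most like each factor, with the lowest of all named for Dbp alone after its value was seen. An item that this rule names is not reported here. The hepatocyte, kidney epithelium and immune cell lists are markers from general knowledge. Alternatives were other pseudocounts and filters, median ratio and quantile scaling, totals without mitochondrial genes, no variance trend, limma-voom on recovered fragments, 1 fit for both organs, a replicate block, and each mouse left out. List counts without A94 or A115 and under other scalings were added after the data had been seen.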

Additional observations from a re-analysis of the deposited data

Results flagged for a closer look

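Of 24 groups of 4 mice (6 factors in each organ and condition), 1 held a mouse far from the others by Dixon's ratio. It was Nfil3 in LD-conditioned kidneys, where L86 stood at 6.11 FPKM and the other 3 mice at 3.64 to 3.74 FPKM. Its gap to the nearest mouse was 0.946 of the whole range of log2 levels, above the 95% critical value for 4 samples. Chance alone marks about 1 in 20 groups in this way. The liver of L86 was also the highest of all livers for Nfil3, with 26.6 FPKM.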

How the results depend on the processing

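For differences between the conditions, no factor tested passed in liver under any alternative run, and in kidney 1 (Bhlhe40) passed under the median ratio without A115 and none under the others. With a mean FPKM above 1, Bhlhe41 was not tested. The direction changed for Bhlhe40 in liver under the median ratio (−0.097) and quantile normalization (−0.024), for Bhlhe41 in liver with pseudocounts of 0.5 (0.00037) and 1 (0.011), for Bhlhe41 in kidney under quantile normalization (−0.0034) and for Tef in kidney under the median ratio without A115 (0.00033). Leaving out each mouse gave ranges from −1.73 to −0.15 for Dbp, −0.24 to 0.19 for Bhlhe40 and from −0.48 to 0.25 for Bhlhe41 in liver, and from −0.50 to 0.72 for Dbp, −0.83 to 0.20 for Tef, −0.62 to 0.022 for Nfil3 and −0.20 to 0.39 for Bhlhe41 in kidney. The difference of the ADV effect between the organs ran from −0.28 to 0.47 for Tef, −0.081 to 0.32 for Nfil3 and −0.000201 to 0.34 for Bhlhe41, and for Tef it was 0.029 under the median ratio and 0.39 under the median ratio without A115. Between the organs, the median ratio without A115 gave −0.43 for Tef and −0.56 for Bhlhe40, beside −0.62 and −0.57 with all mice, quantile normalization gave −0.13 and −0.11, and Bhlhe41 was −0.39 under quantile normalization. With the mouse as a replicate block, Dbp between the organs (0.95) passed and no other call changed. The number of relations across mice with an adjusted p under 0.05 ran from 3 to 9 with 1 mouse left out, and the relation of Bhlhe40 between the organs from −0.51 to 0.23. The cause of these changes was not tested. The lowest levels, those of Bhlhe41 in liver, rest on 13 to 106 fragments, which limits their precision.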
